A study of Homo sapiens with 6 samples.

Results

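GAS5 (growth arrest specific 5, ENSG00000234741.7) is a non-coding gene whose introns carry small nucleolar RNAs, and it is described here through every Argonaute crosslink site that the deposited table assigns to its symbol. The rule took 27 of the 16230 sites in the table. Its annotation column placed 22 of these 27 sites in introns and 5 in exons, where an exonic site of a non-coding gene is labelled as non-coding RNA. The members were thus chosen by gene symbol among sites selected on their crosslinked reads, so the presence of the 27 sites and their division into intronic and exonic sites are descriptions and were given no test.

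The libraries came from HK2, an established line of human renal proximal tubule cells of wild-type genotype, by PAR-CLIP with an antibody against Argonaute. In this method 4-thiouridine is built into RNA, ultraviolet light joins it to bound protein, and the joined base is then read as a changed T. The 2 control and the 2 TGFbeta1 libraries were both from cells that had been starved of serum for 24 h, given 100 µM of 4-thiouridine over the last 20 h, and placed under light of 365 nm. The TGFbeta1 cells differed in having been given TGF-beta1, a profibrotic cytokine, at 20 ng/mL for 24 h, and no further agent is named for the control cells. Complexes running at 100 to 150 kDa on a gel were recovered, and cDNA of 80 to 150 nt was kept. The labels do not say whether the replicates were separate cultures, so the spread behind the p-values below is that of these 4 libraries and may be technical. A further 2 libraries with IgG were not analysed here, and the values below carry no measured background.

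GAS5 is transcribed into a spliced RNA that is unstable because nonsense-mediated decay removes it during translation, and the spliced RNA is also known as a decoy that binds the glucocorticoid receptor. Its introns are processed into C/D box snoRNAs, which guide methylation of ribosomal RNA and are recognised by a box C near the 5′ end and a box D near the 3′ end. Argonaute proteins carry microRNAs, which pair with target RNA mainly through the seed at the microRNA's 5′ end, and short fragments of some snoRNAs have also been found in Argonaute complexes.

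The 4 libraries held 1714445 and 1926255 mapped reads (control 1 and 2) and 5293208 and 3415700 (TGFbeta1 1 and 2), as recovered from the step of the deposited RPM values, reads scaled to library size. Between 36958 and 74969 of these per library were crosslinked reads at the listed sites. The lower depth of the control libraries limits what can be seen at the weaker sites: 1 read is worth 0.583 and 0.519 RPM there and 0.189 and 0.293 RPM in the TGFbeta1 libraries. Markers were checked for the labelled cell type. Of the 4 general epithelial markers only KRT18 was listed (28 reads). None of the 6 proximal tubule, 4 fibroblast, 3 endothelial and 3 leukocyte markers had a site. Since these are sites of Argonaute contact and not RNA levels, they do not establish the cell type.

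GAS5 lies on the minus strand of chromosome 1 and spans 173863901 to 173869045 (RefSeq, GRCh38.p14, 5145 nt). Its interval holds 11 snoRNA genes, 10 of the SNORD class (C/D box) and SNORA103 (H/ACA box). These cover 801 nt, 15.6% of the gene. Of the 27 sites, 21 fell inside 9 of these snoRNA genes, and none inside SNORD77 or SNORA103. The overlap is by position: the RefSeq table used here gives no strand for the snoRNAs, and base numbers within a snoRNA are counted from its 5′ end on the strand of GAS5. The 21 sites comprised 19 of the 22 intronic sites and 2 of the 5 exonic sites. Both of those exonic sites lie in SNORD74 and are counted as exonic through 1 annotated transcript.

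**Figure D1:**
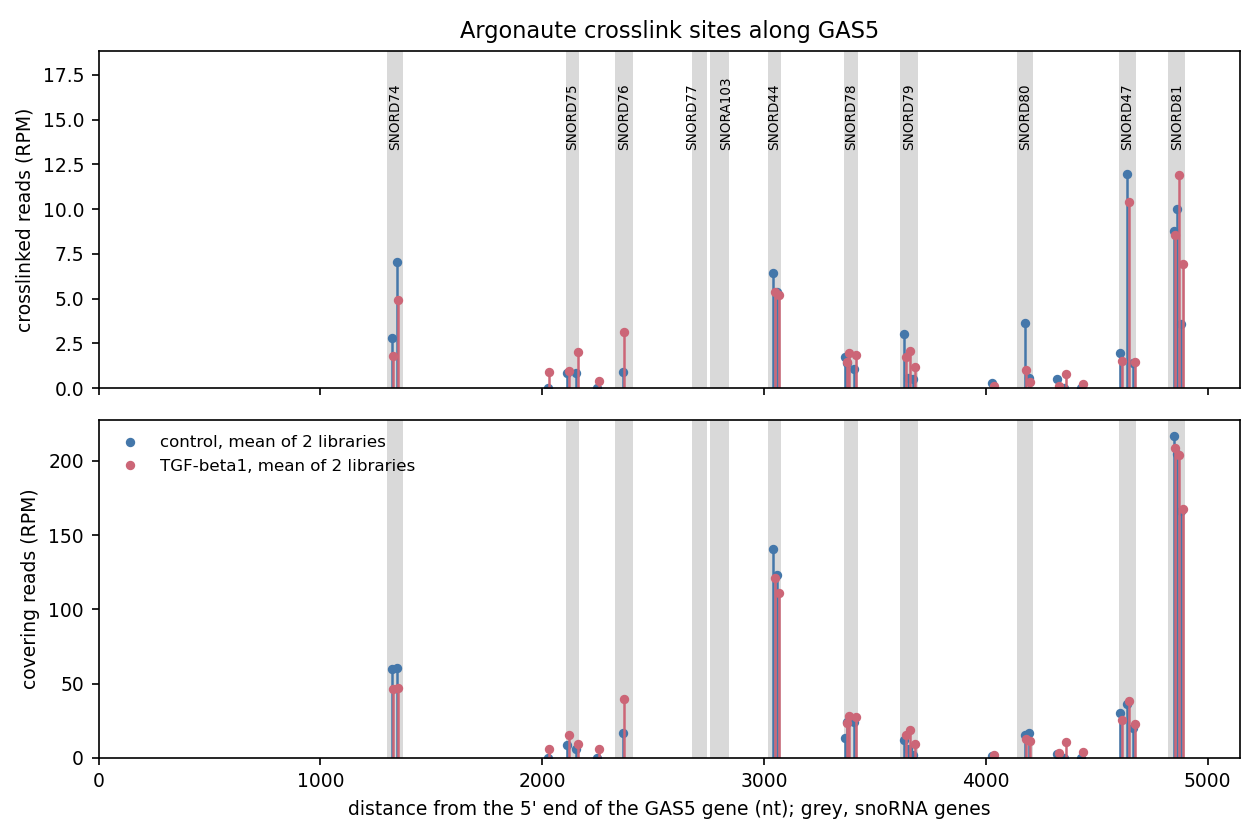
Crosslinked reads (top) and all reads covering the site (bottom), in RPM as deposited, against the distance from the 5′ end of GAS5 in nt. Each stem is the mean of the 2 control or the 2 TGF-beta1 libraries, the colours are drawn 4 nt to either side of the true position so that both can be seen, and grey bands are the 11 snoRNA genes. Covering reads are listed as 0 in a library with no crosslink at the site, and the means in the lower panel include these; the tall stems stand in SNORD81, SNORD47, SNORD44 and SNORD74, and between the bands no stem reaches 1 RPM of crosslinked reads.

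The windows below show the 7 sites with the most crosslinked reads, which are also the 7 that could be tested, in the order of the RNA from 5′ to 3′. Each is 29 nt of the RNA strand of hg38 as the deposited table gives it (minus strand, written with T for U), and the capital is the crosslinked T.
SNORD74 base 48, chr1:173867684-173867712: tctgagagtaatgaTgaatgccaaccgct
SNORD44 base 28, chr1:173865987-173866015: aagcaaatgctgacTgaacatgaaggtct
SNORD44 base 46, chr1:173865969-173865997: catgaaggtcttaaTtagctctaactgac
SNORD47 base 41, chr1:173864391-173864419: atgaaatataatgaTatcactgtaaaacc
SNORD81 base 29, chr1:173864180-173864208: atctcaatccaactTgaactctctcactg
SNORD81 base 45, chr1:173864164-173864192: aactctctcactgaTtacttgatgacaat
SNORD81 base 64, chr1:173864145-173864173: tgatgacaataaaaTatctgatattctgc

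The crosslinked T closed a run of TGAT in 3 of these windows, those of SNORD74 base 48, SNORD47 base 41 and SNORD81 base 45. Over all 21 snoRNA sites of GAS5, TGAT ended on the crosslinked T at 7 (33.3%). The same was true of 20.8% of the 250 sites in snoRNA genes elsewhere and of 4.63% of the whole table. The other 4 of the 7 were SNORD75 base 10, SNORD80 base 38, SNORD47 base 10 and SNORD47 base 68. The 7 sites together carried 419 of the 937 crosslinked reads in snoRNA genes of GAS5, and the other 14 carried 518.

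Letters of the C/D boxes were searched on the RNA strand of the 31 nt windows, without the opposite strand. TGATGA, the letters at the core of box C, stood in the windows of 6 of the 21 snoRNA sites of GAS5 (28.6%). The shares were 21.2% of snoRNA sites elsewhere and 2.68% of all sites. CTGA, the letters of box D, stood in 16 of 21 (76.2%), against 46.8% and 19.8%. Neither stood in any of the 6 GAS5 windows outside snoRNA genes. TGATGA and TGAT overlap each other by their letters, and windows of neighbouring sites share sequence, so these counts are not independent of each other. Position within the snoRNA was not used in the search, and the run at SNORD74 base 48, in a gene of 72 nt, is not near the 5′ end. The letters thus do not show that a window holds box C or box D itself. A match of letters is a description and not a site of binding.

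Crosslinked reads in GAS5 came almost wholly from the snoRNA genes. The 27 sites held 963 crosslinked reads over the 4 libraries, and 937 of them (97.3%) lay in snoRNA genes. By library the share was 99.4% and 98.2% in the controls and 96.4% and 97.2% in the TGFbeta1 libraries. The groups did not overlap, and the share was 98.8 ± 0.79% (SD, n = 2) in controls against 96.8 ± 0.58% (n = 2) with TGF-beta1. The exact two-sided permutation test gave p = 0.333, which no split of 2 and 2 libraries can go below. GAS5 ranked 22nd of 4361 gene names by its mean crosslinked RPM summed over sites, with no correction for length. By library it ranked 19th and 60th in the controls and 11th and 27th with TGF-beta1.

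SNORD81, the last snoRNA gene before the 3′ end (173864146 to 173864222, 77 nt), held the most crosslinked reads of any of the 9, with 33.4% of all those in GAS5. Summed over its 3 sites it stood at 20.4 and 24.4 RPM in the controls and at 28.1 and 26.6 RPM in the TGFbeta1 libraries. Both treated libraries were above both controls by a small margin, and after TMM scaling, which divides by a factor that centres the typical gene, the values were 19.4 and 17.6 against 42.3 and 25.9. The share of GAS5 reads in SNORD81 was 22.3% (95% Wilson interval 16.5 to 29.4) and 41.2% (32.6 to 50.4) in the controls, and 33.7% (29.5 to 38.2) and 36.4% (30.7 to 42.5) with TGF-beta1. Both control intervals are apart from each other, so the control libraries differed in how their GAS5 reads were divided by more than counting error. These intervals cover counting error only.

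The base 45 site of SNORD81, at 173864178, had the most crosslinked reads of the 27 when summed over the 4 libraries, which differ in depth. It had 13, 24, 61 and 42 reads in control 1, control 2, TGFbeta1 1 and TGFbeta1 2. The base 29 site at 173864194 had 15, 17, 47 and 28 reads in the same order. The base 64 site at 173864159 had 7, 6, 41 and 21 reads. These sites were among the most deeply covered of the table: 173864194, 173864178 and 173864159 ranked 9th, 10th and 16th of 16230 by mean coverage. The table lists coverage as 0 wherever a library had no crosslink at a site, so means over such sites are too low; the SNORD81 sites had crosslinks in all 4 libraries. By mean crosslinked RPM 173864178 ranked only 182nd, and 173864194 265th. Base 41 of SNORD47, at 173864405, ranked above both, at 177th.

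SNORD47 (173864369 to 173864445, 77 nt), known as a reference small RNA in microRNA assays, came next with 18.3% of the reads. It stood at 19.8 and 10.9 RPM in the controls and at 15.7 and 11.1 RPM in the TGFbeta1 libraries, so the groups overlapped. Most of this came from base 41, at 173864405, with 25, 18, 56 and 35 reads. That site had the highest crosslinked share of covering reads of the GAS5 sites crosslinked in every library, 28.1%. Base 10 at 173864436 had 5, 2, 13 and 2 reads, and base 68 at 173864378 had 4, 1, 14 and 1.

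SNORD44 (173865968 to 173866028, 61 nt), likewise used as a reference small RNA, held 13.9% of the reads. Its 4 values were 16.9, 6.75, 10.6 and 10.5 RPM, with both treated libraries between the controls. Base 28 at 173866001 had 15, 8, 26 and 20 reads, and base 46 at 173865983 had 14, 5, 30 and 16. Both sites were deeply covered, 29th and 35th of the table by mean coverage.

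SNORD74 (173867674 to 173867745, 72 nt), the first snoRNA from the 5′ end, held 9.76% of the reads and the only exonic sites with at least 10 reads. It stood at 13.4, 6.23, 6.99 and 6.44 RPM, and only control 1 was apart from the other 3. Base 48 at 173867698 had 17, 8, 29 and 15 reads, and base 26 at 173867720 had 6, 4, 8 and 7. RefSeq lists a further copy, SNORD74B, elsewhere in the genome, and no source used here says how reads shared between such copies were assigned.

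Per 100 nt of snoRNA, SNORD81 had the highest level in control 2 and both TGFbeta1 libraries, at 31.7, 36.6 and 34.6 RPM. In control 1 SNORD44, SNORD81 and SNORD47 lay at 27.7, 26.5 and 25.8 RPM per 100 nt, and SNORD44 was the highest. In controls 1 and 2 and TGFbeta1 1 and 2 SNORD47 was at 25.8, 14.2, 20.4 and 14.4 and SNORD44 at 27.7, 11.1, 17.3 and 17.3 RPM per 100 nt, so these neighbours in the order did not differ beyond their spread. SNORD74 followed at 18.6, 8.65, 9.71 and 8.95, below both in every library.

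The other 5 snoRNAs each held between 2.80% and 6.44% of the GAS5 reads. SNORD78 stood at 6.42, 2.08, 5.67 and 4.98 RPM, with both treated libraries between the controls. Its sites were base 13 at 173865674 (6, 0, 8 and 5 reads), base 21 at 173865666 (4, 1, 7 and 9) and base 53 at 173865634 (1, 3, 15 and 3). SNORD79 stood at 4.08, 4.15, 5.29 and 4.68 RPM, both treated libraries above both controls. Its sites were base 22 at 173865409 (5, 6, 12 and 4 reads), base 40 at 173865391 (2, 0, 11 and 7) and base 62 at 173865369 (0, 2, 5 and 5).

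SNORD75 stood at 2.33, 1.04, 3.59 and 2.34 RPM. The lower treated value and the higher control value were nearly equal. Its base 10 at 173866929 had 2, 1, 7 and 2 reads and its base 52 at 173866887 had 2, 1, 12 and 6. SNORD76, whose site is base 37 at 173866679, stood at 1.75, 0, 3.02 and 3.22 RPM from 3, 0, 16 and 11 reads.

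SNORD80 was the 1 snoRNA of the 9 whose deposited RPM was lower in both treated libraries than in both controls, at 5.83 and 2.6 against 1.51 and 1.17. On that scale the median tested gene was also lower with TGF-beta1, by a log2 difference of -0.45. The share of all genes lower in both treated libraries was not counted on it. The counts behind these values were 10, 5, 8 and 4 reads, of which base 38 at 173864866 held 9, 4, 6 and 3. After TMM scaling the SNORD80 values were 5.53 and 1.87 against 2.27 and 1.14, and the groups overlapped.

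**Figure D2:**
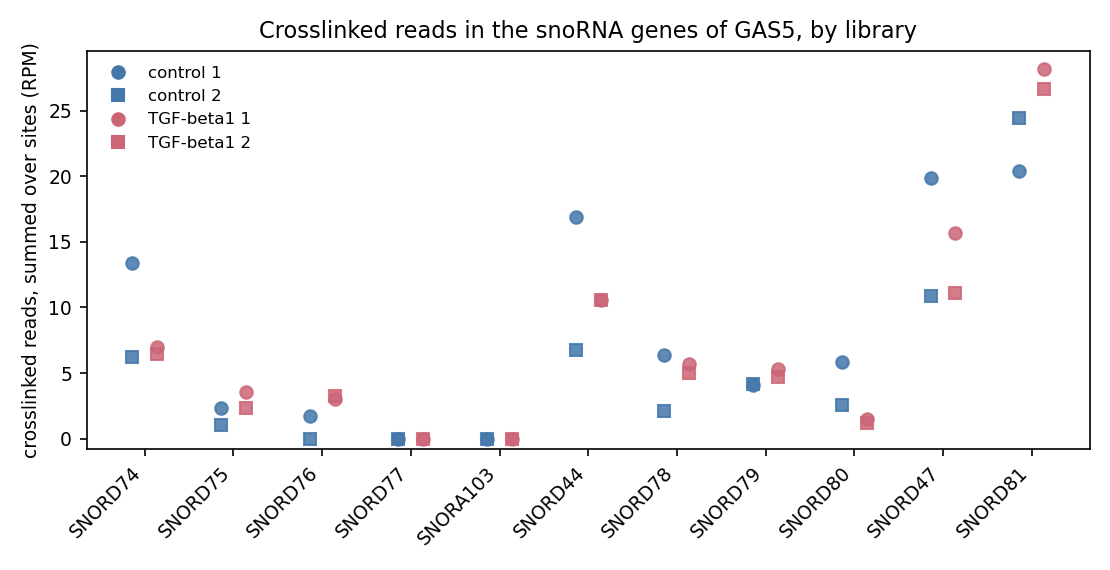
Crosslinked reads summed over the sites of each snoRNA gene of GAS5, in RPM as deposited, with 1 point per library and the snoRNAs in 5′ to 3′ order. SNORD81 is highest at 20.4 to 28.1 RPM, the control points are apart from each other in SNORD74, SNORD44 and SNORD47, and SNORD77 and SNORA103 had no site.

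Outside the snoRNA genes GAS5 had 6 sites with 26 reads among them. The exonic site with the most of these was 173867017, at 0, 0, 8 and 1 reads. The exonic sites outside SNORD74 together had 0 and 0 reads in the controls and 14 and 5 in the TGFbeta1 libraries. A count of 0 allows up to 1.91% and 2.63% of the GAS5 reads of control 1 and control 2, and the TGFbeta1 shares were 3.17% (95% Wilson interval 1.90 to 5.25) and 2.0% (0.857 to 4.60). The control libraries were the less deeply sequenced, and TGFbeta1 2 lay within what a count of 0 allows in control 2. The intronic sites outside snoRNA genes had between 2 and 3 reads each. Over the 27 sites, 17 had crosslinked reads in all 4 libraries, as did 47.2% of snoRNA sites elsewhere and 37.7% of sites outside snoRNA genes and GAS5. A further 4 had them only in treated libraries, and the share of such sites among all 16230 was not counted. Among all sites, 5417 and 4865 had no crosslink in control 1 and 2, and 1699 and 2365 had none in TGFbeta1 1 and 2.

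The exonic share of GAS5 crosslinked reads did not separate the groups. It was 14.6% and 10.5% in the controls and 11.5% and 10.8% with TGF-beta1, and both treated values lay between the controls. The means were 12.6 ± 2.92% and 11.2 ± 0.52% (SD, n = 2 each), a difference of -1.42 percentage points (exact two-sided permutation test, p = 1). Of these exonic reads all in the controls, and 37 of 51 and 22 of 27 in the TGFbeta1 libraries, were the SNORD74 sites. Leaving out the SNORD74 sites turned the difference to 2.82 points, and leaving out control 1 turned it to 0.64.

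Crosslinked reads were a small part of the reads that covered the snoRNA sites. At the 17 snoRNA sites of GAS5 crosslinked in all 4 libraries, the crosslinked share of covering reads had a median of 6.49% and ran from 2.99% to 28.1%. By library the median was 8.16% and 4.71% in the controls and 7.5% and 4.49% with TGF-beta1, so the spread within each group was as wide as between groups. The covering reads were many, with a median of 27.9 RPM at these sites.

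SnoRNA sites elsewhere had a like share. At 118 snoRNA sites outside GAS5 the median was 8.83%, at 214 other non-coding RNA sites 7.68%, at 478 intronic sites outside snoRNA genes 48.1% and at 3549 sites in 3′ UTRs 39.4%, each over sites crosslinked in all 4 libraries. Median coverage was 27.6 RPM at the snoRNA sites elsewhere and 4.27 RPM at all sites outside snoRNA genes and GAS5. Coverage thus differed between these classes along with the crosslinked share, and its part in the share was not tested. The GAS5 median lay nearer to that of snoRNA sites elsewhere than to that of other intronic sites. Within GAS5, the 7 sites at TGAT had a median of 7.19% and the other 14 snoRNA sites 6.48%.

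**Figure D3:**
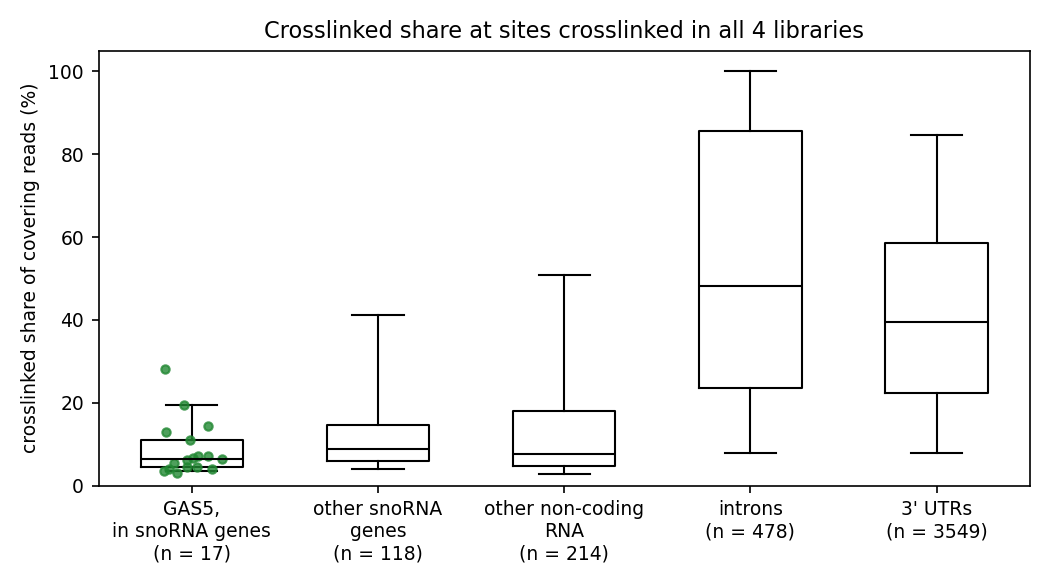
Crosslinked reads as a percent of covering reads at sites crosslinked in all 4 libraries, over the 4 libraries together. Boxes give the quartiles and median, whiskers the 5th and 95th percentiles, and green points the 17 GAS5 sites, of which the highest is 28.1%; the median is 6.49% in GAS5 and 39.4% in 3′ UTRs.

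The deposited table assigns each site a seed match to a microRNA near the crosslink where it finds one. GAS5 had a match at 17 of 27 sites (63.0%, against 63.1% of the whole table), 3 of 7 nt (11.1%, against 20.2%) and 14 of 6 nt. The table calls 3 of the 27 adjacent to the crosslink (11.1%, against 22.95% of the whole table and 2.80% of snoRNA sites elsewhere). Sites with an adjacent match held 22.2% of the crosslinked reads of GAS5, 44.8% of those of the whole table and 2.63% of those at snoRNA sites elsewhere. These shares are over sites of 1 gene, several of which share sequence, and are given without a test.

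The 3 matches of 7 nt are shown, each followed by its microRNAs, with the matched bases in capitals. The mature microRNAs are from RefSeq (GRCh38.p14), with the seed, bases 2 to 8, in capitals.
SNORD81 base 45, chr1:173864164-173864192: aactctctcactgatTACTTGAtgacaat
hsa-miR-26a-5p: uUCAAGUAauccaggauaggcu
hsa-miR-26b-5p: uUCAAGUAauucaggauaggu
SNORD44 base 46, chr1:173865969-173865997: cATGAAGGtcttaattagctctaactgac
hsa-miR-205-5p: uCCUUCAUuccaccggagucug
SNORD79 base 62, chr1:173865355-173865383: aaagaaaatggagattaatcttaaACTGA
hsa-miR-30a-3p: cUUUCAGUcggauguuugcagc
hsa-miR-30e-3p: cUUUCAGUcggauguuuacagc

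The miR-26 match began 1 nt after the crosslinked T of the SNORD81 base 45 site and was the only 7 nt match in GAS5 that the table calls adjacent. Its last 3 bases are also the first letters of a TGATGA run in the window. The neighbouring base 29 site carried a 6 nt match to the same miR-26 seed. The miR-205 match began 13 nt before the crosslink of SNORD44 base 46 and the miR-30 match, at SNORD79 base 62, 10 nt after it, so that its last bases lie past the end of the printed window. The authors' table gives these microRNAs read values of 20784 for miR-26, 8403 for miR-205 and 7344 for miR-30a/e-3p, with a scale that is not given in the sources used here.

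The other adjacent matches were of 6 nt. One was to miR-181 at SNORD74 base 48 (69 crosslinked reads) and shared 3 bases with TGATGA. The other was to miR-28-5p and miR-708-5p at SNORD80 base 56, a site with 5 crosslinked reads.

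For 12 microRNAs described elsewhere as binding GAS5, the complement of bases 2 to 8 was searched in the windows, on the RNA strand alone. The letters ATGAAGG for miR-205-5p stood in 2 overlapping windows, those of SNORD44 base 28 and base 46 (0.573% of all 16230 windows hold them). AGCAATA for miR-137-3p stood in 1, that of SNORD80 base 38 (0.142%), and TACTTGA for miR-26a-5p in 1 (0.832%). The other 9, among them miR-21-5p, miR-222-3p and miR-17-5p, had none. These windows cover the crosslinked parts of the gene and not the spliced RNA as a whole, so nothing follows for those microRNAs.

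Summed over its 27 sites, GAS5 was not called between TGF-beta1 and control. It had 157 and 114 crosslinked reads in the controls and 442 and 250 in the TGFbeta1 libraries. As deposited this was 91.6 and 59.2 against 83.5 and 73.2 RPM, means of 75.4 ± 22.9 and 78.3 ± 7.29 (SD, n = 2 each), with both treated values between the controls. After TMM scaling it was 86.8 and 42.7 against 125.5 and 71.1, means of 64.8 ± 31.2 and 98.3 ± 38.4, and the groups still overlapped.

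The limma fit over 1266 genes, on log2(scaled RPM + 1), put the GAS5 difference at 0.62 ± 0.34 (SE), with a 95% interval of -0.14 to 1.39 and an adjusted p of 0.487. The interval spans no change and a rise of more than 1 log2 unit. Adding the pseudocount of 1 makes the differences of weak sites smaller than those of strong ones. In this fit 39 genes, 3.08% of those tested, were called at an adjusted p under 0.05, 20 higher (1.58%) and 19 lower (1.5%). Without TMM scaling 6 genes were called higher and 23 lower, the median gene moved to -0.45 and GAS5 to 0.085 (limma adjusted p = 0.955). The level of GAS5 RNA was not analysed here, so a change in RNA and a change in Argonaute contact per RNA molecule cannot be told apart, nor can fewer expressing cells and less RNA per cell.

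Single sites were tested in a limma fit over 1059 sites, which 7 of the 27 GAS5 sites entered; the other 20 had too few reads. None of the 7 was called, where 7.18% of tested sites were, 3.68% as higher and 3.49% as lower. Without TMM scaling 28 sites were called, of which only 4 as higher, and again 0 in GAS5. At an unadjusted limma p under 0.05 there were 2 of the 7, as there were 204 of all 1059 tested sites. On the recovered reads edgeR and DESeq2 each called 0 of the 7, where they called 7.74% and 3.97% of all sites. All 7 log2 differences were above 0, but without TMM scaling those of 173867698, 173866001, 173864405 and 173864194 were below it. Both sites under the unadjusted threshold lie in SNORD81.

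SNORD81 base 64 at 173864159 had scaled values of 3.87 and 2.06 RPM in the controls and 12.6 and 5.998 with TGF-beta1. The groups did not overlap, and the limma log2 difference was 1.34 ± 0.48 (SE, 95% interval 0.34 to 2.34, adjusted p = 0.103). Without control 1 it passed (1.67, limma adjusted p = 0.0115). It did not without control 2 (0.98, adjusted p = 0.151), TGFbeta1 1 (0.88, 0.722) or TGFbeta1 2 (1.83, 0.263), nor in limma without TMM scaling (0.79, 0.558). SNORD81 base 45 at 173864178 had scaled values of 7.19 and 8.26 against 18.8 and 11.996 RPM. Its groups did not overlap either, and the difference was 0.88 ± 0.35 (0.16 to 1.60, limma adjusted p = 0.141). Both treated libraries were above both controls at 23.9% of all tested sites and at 2 of 7 in GAS5, and below both at 24.5% and at 0 of 7.

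The other 5 tested sites overlapped between groups. The limma log2 difference was 0.56 ± 0.39 (SE) at SNORD81 base 29 and 0.46 ± 0.38 at SNORD47 base 41. At SNORD44 base 46 it was 0.63 ± 0.53, at SNORD44 base 28 it was 0.40 ± 0.48, and at SNORD74 base 48 it was 0.21 ± 0.50. Their limma adjusted p-values ran from 0.459 to 0.865. The 9 snoRNA sums were not tested. After scaling, SNORD75, SNORD76, SNORD79 and SNORD81 were higher in both treated libraries, where 20.5% of tested genes were. None of the 9 was lower in both, where 23.1% of tested genes were. The tested genes had passed a filter on low counts and these sums had not, so the shares are not like for like. SNORD75 was apart only by 2.21 in control 1 against 2.28 in TGFbeta1 2, and SNORD76 had 0 reads in control 2.

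**Figure D4:**
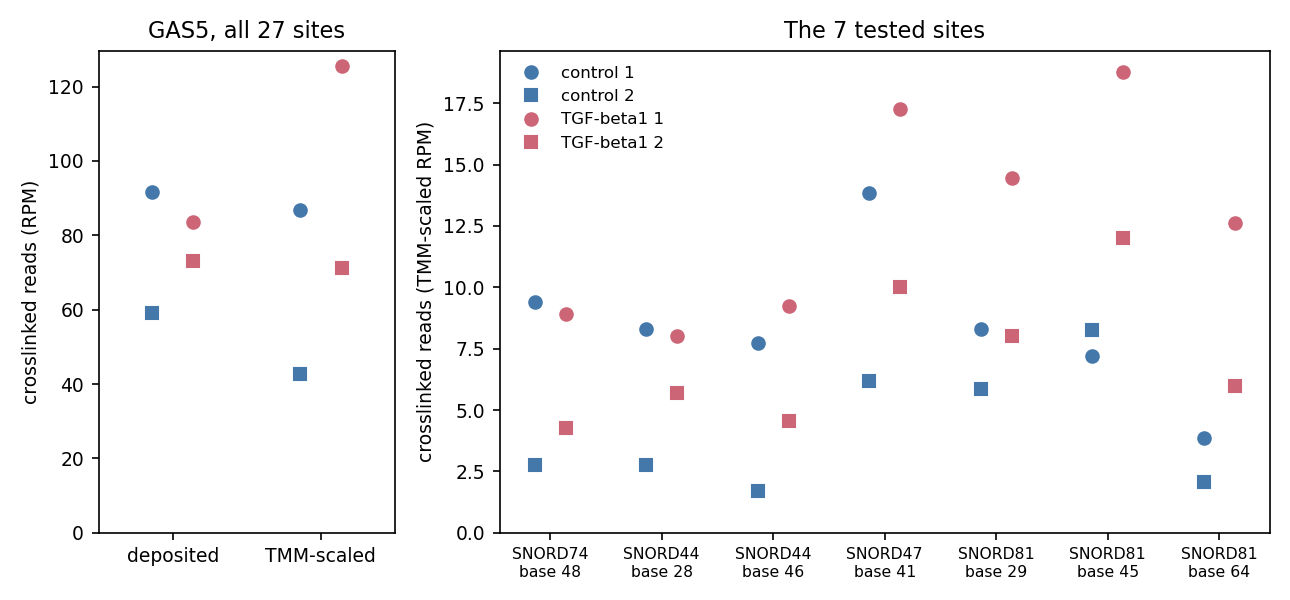
Crosslinked reads of GAS5 by library: left, all 27 sites in RPM as deposited and after TMM scaling; right, the 7 tested sites in TMM-scaled RPM, with circles for replicate 1 and squares for replicate 2. Blue control and red TGF-beta1 points overlap in every column except SNORD81 base 45 and base 64.

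Among other non-coding snoRNA host genes none was called by limma either. Of 28 genes on the list 8 had a site, under 14 names in the table, several of which join the host with another symbol. The 5 names tested belong to 3 genes, and 0 passed in limma (0 by edgeR and 0 by DESeq2). At an unadjusted limma p under 0.05 there was 1 of the 5, as there were 174 of all 1266 genes tested. The median log2 difference of the 5 names was 0.48, against 0.02 over all genes tested, and 5 of 5 names lay above 0, as did 51.3% of all genes. SNHG1 had 82.4% of its 216 reads in snoRNA genes (SNORD29 and SNORD31), and its scaled level was 15.3 ± 5.73 in controls and 21.5 ± 6.20 with TGF-beta1 (limma adjusted p = 0.572). SNHG5 had 92.2% of its 206 reads in SNORD50A and stood at 9.34 ± 7.90 and 24.0 ± 10.6 (limma adjusted p = 0.207). The name ZFAS1, with none of its 103 reads in a snoRNA gene, was at 9.001 ± 2.13 and 9.10 ± 1.19. The joined names of SNHG1 with SNORD25 and of ZFAS1 with SNORD12 had 51 and 41 reads, all in the snoRNA.

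Protein-coding snoRNA hosts held 3.68% of their 1903 reads in snoRNA genes. Of 40 on the list 32 names had a site, 8 were tested and 0 passed in limma (0 at an unadjusted p under 0.05, and 0 by edgeR and DESeq2), with a median log2 difference of 0.35. The heat-shock chaperone HSPA8 had 551 reads, the translation factors EIF4G2 and EIF4A2 266 and 191, and nucleolin (NCL) 186. None of these 4 had a read in a snoRNA gene, and 30 of the 32 names had none. The exceptions were RPL17, with all 47 reads in SNORD58B, and RPL23A, with all 23 in SNORD42B. Sites were taken by gene symbol, so reads in the snoRNA of a host that are listed under another symbol are not counted here. Of the 250 snoRNA sites outside GAS5, those under other symbols were not assigned to hosts. The shares thus do not say that the snoRNAs of these hosts had no crosslinks.

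Genes tied to what spliced GAS5 is known for were taken from short lists. Of 14 factors of nonsense-mediated decay 6 had a site, and the kinase SMG1, the only 1 tested, stood at 17.8 ± 4.52 and 22.5 ± 5.66 scaled RPM (limma adjusted p = 0.70). Of 12 genes for the glucocorticoid receptor and its usual targets 5 had a site and 4 were tested. The kinase SGK1 rose from 24.7 ± 1.02 to 51.5 ± 5.15 (limma adjusted p = 0.0376), and the metallothionein MT2A fell from 60.8 ± 3.87 to 29.1 ± 4.98 (0.0374). Of the 4 tested, edgeR called 2 and DESeq2 0, where they called 3.79% and 2.29% of all genes. With any 1 of the 4 libraries left out neither gene passed (limma adjusted p from 0.178 to 0.347 for SGK1 and from 0.0901 to 0.315 for MT2A). Without TMM scaling the limma adjusted p was 0.697 for SGK1 and 0.059 for MT2A. The phosphatase DUSP1 was at 6.82 ± 5.73 and 5.54 ± 1.01 and the receptor gene NR3C1 at 6.56 ± 5.57 and 4.55 ± 1.60.

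Among 57 tested genes within 2-fold of the mean level of GAS5, those nearest to it in profile over the 4 libraries were the RNA polymerase II regulator 7SK (listed as 7SK,RN7SK), the exchange factor TRIO and the chaperone calreticulin (CALR). Their Euclidean distances between centred log2 profiles were 0.50, 0.59 and 0.66, against a median of 1.27. 7SK was at 116.7 and 45.4 scaled RPM in the controls and 103.4 and 77.4 with TGF-beta1, so like GAS5 it was low in control 2. A distance over 4 libraries says little beyond that.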

How the data were processed

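The deposited table gives, per crosslink site and library, crosslinked and covering reads as RPM, scaled to library size by the authors, with coverage listed as 0 wherever a library had no crosslink at the site. Its microRNA read and match offset columns are used as a score as deposited by the authors, and no source says how the former was scaled. Per the submitters' processing notes bcl2fastq 2.20.0.422, STAR 2.7.1a, bedtools and hg38 were used, and per the file headers GENCODE 27. The crosslink caller and the treatment of reads that map to several snoRNA copies (RefSeq lists SNORD74B and SNORD77B elsewhere) are named in none of the sources used here, so reads of such copies are uncertain. The 4 per-sample columns of other samples were not used.

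Dividing RPM by the value of 1 read gave whole reads for 100% of values (tolerance 0.1 reads). Sites and genes (sums over a symbol) passed filterByExpr of edgeR (minimum count 10), scaled by TMM (gene factors 0.665 to 1.385, site factors 0.614 to 1.508) and tested by limma 3.58.1 with a variance trend on log2(scaled RPM + 1), Benjamini-Hochberg adjusted p under 0.05; edgeR 4.0.16 and DESeq2 1.42.0 were alternatives (R 4.3.3, Python 3.11.15). Tested on simulated data of the same size, the gene fit recovered 87.5% of 4-fold and 26.9% of 2-fold changes, and the site fit 76.8% and 26.7%. The simulation gave every gene and site the same fixed dispersion, which was not estimated from these data. The recovery thus need not hold for GAS5, whose control libraries stood at 86.8 and 42.7 scaled RPM. Same-numbered libraries deviated together weakly (correlation 0.131 over genes, 0.117 over sites). With 2 libraries per group the 2 pairs give the same value by construction, so this is 1 number and cannot settle whether the libraries are paired. No label ties the numbers, and the libraries were not taken as pairs.

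GAS5, the lists, the trend and the tests were chosen with earlier results of these data known; the motifs and 3 alternatives (snoRNA sites alone, other sites alone, exonic share without SNORD74) were added later. All sites with at least 10 reads are named, and the 3 leading exonic ones; of the lists, the up to 4 members with the most reads and those called; of like genes, the 3 nearest within 2-fold of GAS5. SnoRNA positions are from RefSeq (GRCh38.p14), which shares hg38's primary coordinates, and all 12 listed microRNAs matched there.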

Additional observations from a re-analysis of the deposited data

How the results depend on the processing

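The GAS5 gene difference (0.62) lay above 0 under all 16 alternatives, from 0.085 to 1.31, and from 0.13 to 1.14 with 1 library left out. It passed in limma only with the replicate number as a block (0.62, adjusted p = 0.0375), where 64 genes and 117 sites were called and 1 GAS5 site, 173864159 (1.34, adjusted p = 0.0459); of the non-coding host list it called SNHG5. The numbers were not shown to pair the libraries, and the block left no other GAS5 call changed. Leaving out 1 library gave 0 to 1 called GAS5 sites.

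Calls over all genes (39) were 4 without the filter, 3 without the trend, 25 from coverage and 0 to 17 without 1 library (0 without either control, with 178 and 173 at an unadjusted limma p under 0.05; edgeR with all libraries called 48 and DESeq2 29). Calls over all sites (76) were 28 without TMM, 0 without the filter (2317 at an unadjusted limma p under 0.05), 25 without the trend, 42 by DESeq2, 0 from coverage (1099 unadjusted), 82 by edgeR and 3 to 116 without 1 library. The cause was not tested.

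Without TMM the log2 differences turned to -0.34 (173867698), -0.15 (173866001), -0.15 (173864405) and -0.038 (173864194), and coverage gave -0.0092 at 173867698. Without 1 library they ran from -0.51 to 0.95 at 173867698, where -0.51 was without control 2 and -0.24 without TGFbeta1 1. They ran from -0.25 to 1.05 at 173866001, from -0.20 to 1.47 at 173865983 and from -0.063 to 0.98 at 173864405, below 0 without control 2 each time. At 173864159 the difference was 1.67 without control 1. The exonic difference was 9.21 points as a share of sites with a read, 2.82 without SNORD74, and -3.48 to 0.64 without 1 library.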
